A study of Mus musculus with 4 samples.

Results

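Intronless protein-coding genes are genes whose annotated transcripts consist of a single exon, and the IGF2BP3 eCLIP-seq clusters that lie in them are described here. A cluster, which is a stretch of the genome where eCLIP reads pile up, was taken when its centre fell on the same strand in the exon of a GENCODE M21 basic protein-coding gene with exactly 1 exon in every transcript, and in no exon of another protein-coding gene of that strand. This gave 1303 of 337234 clusters in replicate 1 and 1030 of 216354 in replicate 2, and 7 clusters of each replicate that also touched another gene were left out. The annotation holds 1381 such genes, and 375 of them had a cluster in at least 1 replicate.

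The study asked which RNAs IGF2BP3 contacts in the adult mouse testis. Wild-type C57BL/6 testes, 8 weeks old, were crosslinked with UV light, and RNA bound to IGF2BP3 was recovered with an antibody (IP) and sequenced beside size-matched input (SMInput), which is RNA of the same lysate and size range taken without the antibody. There were 2 IP and 2 SMInput libraries, which formed 2 replicates of 1 IP and 1 SMInput each. Whole testis holds germ cells and somatic cells together, so the cell of origin of a read is not known, and fewer cells of a type and less RNA per cell cannot be told apart.

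Most genes of mammals are interrupted by introns, and many that are not arose as retrogenes, which are copies made by reverse transcription of a processed mRNA and inserted elsewhere in the genome. Retrogenes are known for expression in the testis, where several replace an X-linked parent gene during meiosis and after it, and other intronless genes encode histones, olfactory receptors and small regulatory proteins. IGF2BP3 belongs to a family of RNA-binding proteins that contact mRNA through KH and RRM domains and influence its stability and translation, and it has been described as a reader of m6A, a methylated base of mRNA.

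Each cluster carries the log2(fold change) of IP over SMInput and a −log10(P value), and it was counted as significant when both were at least 2. The library totals that the listed values imply were 5133438 IP and 8706391 SMInput reads in replicate 1, and 4637612 IP and 16696122 SMInput reads in replicate 2. Read numbers of single clusters were recovered from the same values, and 95% intervals (exact, Clopper-Pearson) made from them cover counting error only. Clusters that abut can share reads, and clusters are not replicates of each other.

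All 8 germ cell markers examined and all 7 markers of Sertoli and Leydig cells had clusters in both replicates. The recovered IP reads in their clusters summed to 10029 and 9905 for the germ cell list, in replicates 1 and 2, and to 1790 and 1560 for the somatic list. Prm2 and Ldhc, which encode a protamine and a sperm lactate dehydrogenase, had 1912 and 3086 IP reads in replicate 1 and 1710 and 3687 in replicate 2, and Ldhc was the most abundant of its list. Insl3, a hormone of Leydig cells, held 1548 and 1332 of the somatic reads, and none of the 15 markers is intronless. The tissue label thus had its markers, and the share of each cell type in the intronless clusters was not tested.

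In replicate 1, 273 of the 1303 intronless clusters were significant (21%), where 4.92% of all clusters were. In replicate 2 the count was 320 of 1030 (31.1%), where 13.2% of all clusters were. The median log2(fold change) was 1.66 and 1.85 in the intronless genes, and 1.499 and 1.53 over all clusters. Intronless clusters thus met the thresholds more often than the whole table in both replicates, and no test over clusters was made.

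All clusters include many with few reads outside exons, and a closer neighbour is the set of clusters in exons of protein-coding genes with introns. Of 131416 such clusters in replicate 1, 9.04% were significant with a median log2(fold change) of 1.08, and of 107680 in replicate 2, 15.2% with a median of 1.17. Intronless clusters also held more reads, with a median of 10 and 11 IP reads against 7 and 7. Read depth therefore differs between these sets. Among clusters with at least 10 IP reads, 36.4% of intronless clusters were significant in replicate 1 and 38.4% in replicate 2, against 24.1% and 27.3% in genes with introns and 24.8% and 27.3% over all clusters. IP reads also enter the fold that makes the call, so this filter does not match the sets for depth.

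Counted by gene, the picture was different. A significant cluster in both replicates was found in 86 of the 280 intronless genes that had clusters in both (30.7%), and in 32.3% of all 10703 protein-coding genes that did. Intronless genes as a whole were seldom detected, since 27.2% of them had a cluster in either replicate against 60.8% of the 20570 genes with introns. The share of detected genes with a significant cluster was therefore near the background, while the share of clusters was above it. In replicates 1 and 2, 341 and 314 intronless genes held the 1303 and 1030 clusters. In genes with introns, 11935 and 10994 genes held 131416 and 107680 clusters, which is more per gene. A gene with more clusters has more chances of a significant one, and the part of this in the gene shares was not tested.

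Stricter calls left fewer clusters. With both thresholds at 3, 87 intronless clusters remained in replicate 1 and 89 in replicate 2, where 1.18% and 2.42% of all clusters passed. A two-sided Fisher's exact test on the recovered reads, with Benjamini-Hochberg adjustment over all clusters of the replicate, an adjusted p of at most 0.05 and a log2(fold change) of at least 2, called 221 and 298 intronless clusters, where it called 3.28% and 10.4% of all clusters.

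The replicates shared many of these positions. A significant cluster of the other replicate overlapped 121 significant intronless clusters of replicate 1 and likewise 121 of replicate 2, where 1.62% and 2.44% of all clusters were of that kind. As a share of the significant clusters of each replicate this was 44.3% and 37.8% in intronless genes, beside 33% and 18.5% over all clusters. Joined where they overlapped, they formed 89 sites in 49 genes.

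At these 89 sites, the values below are those of the overlapping pair of clusters whose smaller log2(fold change) was largest. The median log2(fold change) was 2.86 in replicate 1 and 2.91 in replicate 2, with ranges of 2.01 to 5.49 and 2.04 to 5.24. The replicates differed at a site by a median of 0.37 on the log2 scale and by 2.14 at most, and replicate 1 was higher at 40 sites. At 83 sites the adjusted p of the Fisher's exact test was at most 0.05 in both replicates, counting a site of Dnajb3 whose listed P stood in for the test in replicate 2 because its reads could not be recovered, and at 22 sites both 95% intervals lay above a log2(fold change) of 2. A single SMInput read stood behind 4 of the values in replicate 1 and 1 in replicate 2, and those folds are imprecise.

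The sites were spread unevenly. The 10 genes with at least 3 sites held 41 sites (46.1%), while 30 genes held a single site. On the X chromosome, 24 of 129 intronless genes had a cluster and 1 was significant in both replicates. Over all 1381 intronless genes, 375 had a cluster and 86 were significant in both. On chromosome 7 these counts were 26 and 3 of 175 genes, and on chromosome 13 they were 45 and 3 of 101. None of the 30 intronless genes of the Y chromosome had a cluster, and no difference between chromosomes was tested. The tables hold no clusters of the mitochondrial genome, so its 13 genes could not be examined.

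The gene with the most sites was Papolb. It encodes the testis-specific cytoplasmic poly(A) polymerase (TPAP), is a retrogene of Papola, and had 8 sites, 5 in its coding sequence and 3 in its 3′UTR, at chr5:142525838-142530076 on the minus strand of mm10. Of its 21 clusters in replicate 1, 13 were significant, and of its 20 in replicate 2, 15 were. The strongest site lay in the 3′UTR, 993 bases past the stop codon, with 42 IP reads against 2 SMInput reads in replicate 1 (log2 fold 5.15, interval 3.21 to 8.25) and 26 against 6 in replicate 2 (3.96, 2.65 to 5.53). The site with most reads lay at the end of the coding sequence, with 97 against 36 reads (2.19, 1.63 to 2.79) and 103 against 50 (2.89, 2.39 to 3.41). The 8 sites were thus not alike, and those with most reads were not those with the highest fold.

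Its parent gene Papola, added to the comparison after the values were seen, had 30 and 32 clusters in replicates 1 and 2, of which 2 and 6 were significant. The recovered IP reads in clusters were 616 and 698 in Papola, and 828 and 877 in Papolb. The closest other stretch of the genome to any Papolb site was in Papola and matched at 83.7% of the aligned bases.

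Actl11, which encodes an actin-like protein, had 5 sites, all in its long coding sequence of 3624 bases, on chromosome 9. Of its 19 clusters in replicate 1, 17 were significant, and of 14 in replicate 2, 13 were. The site ranked first by the smaller fold of the replicates lay 2182 bases before the stop codon. It gave 137 IP reads against 9 SMInput reads in replicate 1 (log2 fold 4.69, interval 3.72 to 5.85) and 100 against 26 in replicate 2 (3.79, 3.16 to 4.47). The other sites ranged from 2.54 to 3.99 in replicate 1 and from 2.18 to 4.43 in replicate 2, so this site was the highest in replicate 1 alone. Actl11 was among the intronless genes with the most significant clusters in both replicates, and its significant clusters were all in the coding sequence.

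Atxn7l3b, a small intronless relative of the chromatin factor Atxn7l3, had 5 sites, all in its 3′UTR of 2999 bases on chromosome 10. Their log2(fold change) ran from 2.19 to 3.12 in replicate 1 and from 2.04 to 2.97 in replicate 2, a narrow range beside that of Papolb. The cluster with most reads had 143 IP reads against 44 in replicate 1 (log2 fold 2.46, interval 1.97 to 2.98) and 96 against 44 at the same site in replicate 2 (2.97, 2.44 to 3.52). At 1 of the 5 sites a stretch of chromosome 14 matched 94% of the bases, and its values are uncertain.

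Ubqlnl, which encodes a ubiquilin-like protein, had 4 sites, 3 of them coding. All 7 of its clusters in replicate 1 and 7 of 8 in replicate 2 were significant. Its leading site, at chr7:104149245-104149375 on the minus strand, had 79 IP reads against 6 in replicate 1 (log2 fold 4.48, interval 3.30 to 5.97) and 42 against 4 in replicate 2 (5.24, 3.78 to 7.18), and lay 854 bases before the stop codon.

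The remaining genes with at least 3 sites are less well known. Ccdc89, which encodes a coiled-coil protein, had 3 sites in its 3′UTR, and its leading site gave 53 IP reads against 2 in replicate 1 (log2 fold 5.49, interval 3.57 to 8.57) and 73 against 15 in replicate 2 (4.13, 3.32 to 5.04). Hdgfl1, a relative of hepatoma-derived growth factor, had 3 sites between 2.05 and 2.86 in replicate 1 and between 2.25 and 3.29 in replicate 2. 4933415F23Rik had 4 sites in its 3′UTR between 2.08 and 3.57 in replicate 1 and between 2.13 and 2.67 in replicate 2. The gene 3110070M22Rik had 3 sites between 2.55 and 3.85 over both replicates, 1 of them with a stretch nearby that matched 94.8% of bases. The 3 sites of 1700034I23Rik and the 3 of 1700029P11Rik had a near-identical stretch elsewhere, at 99% and 97% of bases at best, so reads may be shared between the copies and their values are uncertain.

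Ranked by the smaller fold of the replicates, the 5 leading sites, 1 per gene, were those of 1700034I23Rik, 4930519P11Rik, Ubqlnl, Pom121l12 and Ccdc89. The site of 1700034I23Rik, at chr3:40901218-40901326 on the minus strand, is among those with a near-identical stretch, and had 63 IP reads against 3 in replicate 1 (log2 fold 5.15, interval 3.54 to 7.47) and 46 against 6 in replicate 2 (4.79, 3.56 to 6.31). The site of 4930519P11Rik lay 38 bases before the end of its coding sequence and had 34 IP reads against 2 in replicate 1 (log2 fold 4.85, interval 2.89 to 7.95) and 41 against 6 in replicate 2 (4.62, 3.38 to 6.15). The site of Pom121l12 lay 130 bases past its stop codon, with 43 against 4 reads (4.19, 2.73 to 6.13) and 29 against 4 (4.71, 3.20 to 6.68). The intervals of the replicates overlapped at each of these sites. The gene 4930519P11Rik has no annotated UTR.

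Sequences of coding sites are shown because they are the places where intronless mRNAs carried coding signal in both replicates. They are given 5′ to 3′ on the transcribed strand of mm10, from chr2:154612954-154613002 (minus strand), chr7:104149245-104149375 (minus), chr9:107929905-107929937 (plus) and chr6:23654855-23654948 (minus), and capitals mark the bases covered by both clusters of the overlapping pair that gives the values of the site. In Actl11 further clusters of replicate 2 abut that pair on either side.
4930519P11Rik: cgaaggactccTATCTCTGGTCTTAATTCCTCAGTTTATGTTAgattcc
Ubqlnl: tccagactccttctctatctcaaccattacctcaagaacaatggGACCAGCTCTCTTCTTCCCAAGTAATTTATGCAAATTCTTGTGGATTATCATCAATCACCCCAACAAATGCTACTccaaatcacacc
Actl11: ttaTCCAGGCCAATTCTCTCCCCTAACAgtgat
Rnf148: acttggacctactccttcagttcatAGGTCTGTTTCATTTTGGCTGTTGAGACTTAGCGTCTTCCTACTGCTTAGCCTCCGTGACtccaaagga

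For 3′UTR sites among the strongest of genes named above, 30 bases about the middle of the shared stretch are shown, all of them covered by both clusters of the pair, from chr11:14600245-14600274 (plus strand), chr7:90427958-90427987 (plus strand) and chr5:142526950-142526979 (minus strand).
Pom121l12: GGAATTTGTTGTTGCTTCTTATTTGCCCAG
Ccdc89: CATTCTCAGCCTCAGACATCTTCCTATAGA
Papolb: TTGCATTAAGCATGCAAGCATGCATGCTGC

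Short motifs were counted on the transcribed strand in windows of 100 bases about the site centres. GAACA was in 6 of the 89 windows (6.74%), beside 10.2% of windows at all clusters in exons of protein-coding genes in replicate 1 and 8.13% at the 3729 sites of genes with introns. AAACC was in 4.49% of the site windows beside 7.99% of all and 9.73% at sites of genes with introns, GGACT in 7.87% beside 9.54% and 10.2%, and ACACA in 3.37% beside 9.24% and 11.3%. The shares at intronless sites rest on 6, 4, 7 and 3 windows, the mean GC content was 45.8% in the site windows and 49.6% in all, and no difference was tested. Sites lay more often in 3′UTRs than all clusters did, so the regions were also read apart. In 3′UTRs the shares were 6.9% beside 8.44% of all and 7.55% at sites of genes with introns for GAACA, 1.72% beside 8.29% and 9.27% for AAACC, 8.62% beside 9.39% and 10.7% for GGACT, and 3.45% beside 10.7% and 11.8% for ACACA. In coding sequences AAACC was in 3 of 27 site windows (11.1%), above the 8.13% of all and near the 10.7% at sites of genes with introns, and the others were lower, GAACA at 7.41% beside 11.3% and 9.84%, GGACT at 7.41% beside 9.53% and 9.22%, and ACACA at 3.7% beside 9.05% and 10.4%. For some motifs the direction turned with the window. In windows of 50 bases GAACA was in 4 of 58 site windows in 3′UTRs (6.9%) beside 3.75% of all and 3% at sites of genes with introns, and over all regions in 4.49% beside 5.03% and 3.57%. In windows of 200 bases AAACC was in 16.9% of site windows and 16.1% of all, and GGACT in 18% and 17.9%, beside 20.1% and 16.9% at sites of genes with introns. Windows are genomic sequence, and in genes with introns they can reach into an intron.

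By region, 38.4% of intronless clusters in replicate 1 lay in 3′UTRs, 55% in coding sequences and 6.6% in 5′UTRs, and in replicate 2 the shares were 39.8%, 54.2% and 6.02%. Clusters of genes with introns lay in 3′UTRs in 27.2% and 27.3% of cases and in coding sequences in 66.8% and 66.7%. In 3′UTRs, 29% of the intronless clusters of replicate 1 were significant and 43.9% in replicate 2, beside 19.4% and 34.5% in genes with introns. In coding sequences the shares were 16.7% and 23.5% beside 5.19% and 7.86%.

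The coding clusters differed from those of other genes in their fold as well. Their median log2(fold change) was 1.41 and 1.64 in intronless genes, and 0.76 and 0.92 in genes with introns. With at least 10 IP reads, 26.6% and 27% of intronless coding clusters were significant, beside 15.4% in both replicates for genes with introns. This filter too rests on IP reads and leaves depth unmatched. The coding signal of intronless genes was thus above that of other genes in both replicates, as a description of counts and medians.

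Sites found in both replicates were divided much as elsewhere. Of the 89, 58 lay in 3′UTRs (65.2%), 27 in coding sequences (30.3%) and 4 in 5′UTRs (4.49%), and of the 3729 sites of genes with introns 67.1%, 30.2% and 2.63% did. Within the 3′UTR, significant clusters lay a median of 612 bases past the stop codon in replicate 1 and 511.5 in replicate 2. Within 200 bases of it were 24.1% and 25.6% of them, respectively. All intronless 3′UTR clusters were placed much alike, with medians of 505.5 and 479.5 bases and 27.4% and 28.3% within 200 bases. With coding sequences divided into 4 equal parts, the last part held 45 of 120 significant clusters in replicate 1 and 41 of 131 in replicate 2, and the opening part held 19 and 25. Of all coding clusters, the last part held 186 of 717 and 140 of 558, and the opening part 182 and 153.

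Genes called in both replicates were longer than those without a cluster. The 86 genes significant in both replicates had a median length of 2241.5 bases and a median 3′UTR of 600.5 bases, the 289 genes with a cluster that were not significant in both had medians of 1751 and 511 bases, and the 1006 genes without any cluster had medians of 966 and 50.5 bases. No 3′UTR is annotated for 3.49%, 6.92% and 43.2% of them, in that order. The larger part of these gaps thus lay between genes with and without a cluster. The median GC content was 49.1%, 53.1% and 47.9%. A longer transcript offers more bases in which a cluster can fall, and the part of length in these counts was not tested.

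Genes were also counted by role, in lists of named genes or symbols that do not hold every intronless gene of a role. Unless said otherwise, each count below is of genes with clusters in both replicates, to be read beside the 30.7% of intronless and 32.3% of all protein-coding genes given above. Of 9 listed RNA-binding and translation genes, 6 were significant in both replicates, with 7 sites. Pabpc6 and Pabpc2, retrogenes of the poly(A)-binding protein gene Pabpc1, had 2 sites each. The Pabpc6 site ranked first by the smaller fold of the replicates gave 41 IP reads against 8 (log2 fold 3.12, interval 2.01 to 4.42) and 67 against 25 (3.27, 2.59 to 3.995). The other Pabpc6 site stood lower in replicate 1, at 2.66, and higher in replicate 2, at 4.37 (23 against 4 reads). Cstf2t, which encodes the testis form of a cleavage stimulation factor subunit, had 6 of 8 clusters significant in replicate 1 and 3 of 4 in replicate 2. Pcbp1, a poly(C)-binding protein, and Rpl10l, a ribosomal protein that stands in for its X-linked parent in meiosis, had 1 site each, both with near-identical stretches elsewhere, and Hnrnpa0 was significant in both replicates without a shared site. Outside the list, Papolb is described above, and D1Pas1 and Rbm15b were significant in replicate 1 alone. Gspt2, Ddx28, Imp3, Utp3 and Rrs1, likewise outside it, had clusters and none that was significant.

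Of 8 listed ubiquitin-related genes, 4 were significant in both replicates, with 6 sites. Outside the list and named after their values were seen, Ube2d2b, a ubiquitin-conjugating enzyme, had 2 sites, 1 of them with a near-identical stretch elsewhere, Klhl9 and Trim52 had 1 each, and Fbxl14 was significant in both replicates without a shared site. Others outside the list had clusters and none that was significant, among them Znrf4, Otud1, Ubl4b and Uchl4. Besides Ubqlnl, the listed genes significant in both replicates were Rnf148, Kbtbd6 and Kbtbd7, which encode a RING finger protein and relatives of a substrate adaptor of ubiquitin ligases. The site of Kbtbd7 had a log2(fold change) of 2.20 in replicate 1 (19 against 7 reads, interval 0.89 to 3.70) and 3.90 in replicate 2 (29 against 7, 2.68 to 5.33). Rnf148 stood at 3.35 and 5.02, the latter with 9 IP reads against 1 SMInput read (interval 2.17 to 10.5). Rnf113a2, Kctd12 and Ubqln2 were significant in replicate 2 alone.

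ADAM metalloproteases, several of which act in fertilisation, had a median log2(fold change) of 2.13 and 2.59 over 30 and 23 clusters, of which 11 and 13 were significant. Of all intronless clusters 21% and 31.1% were, and of all clusters 4.92% and 13.2%. Of 5 intronless genes of the family, 4 were significant in both replicates, namely Adam1b, Adam4, Adam6a and Adam6b. Adam1b carried the only shared site of the list, with values of 3.60 and 3.71. Adam6a and Adam6b are close paralogs, and whether they share reads was not tested.

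Of 5 listed chaperone genes, 2 were significant in both replicates. Hspb9, a small heat shock protein gene outside the list and named after its values were seen, had 1 site at 2.15 and 2.26, and Dnajc30, likewise outside it, had clusters and none that was significant. Dnajb3, which encodes an HSP40 co-chaperone abundant in spermatids, had 2 sites in its short 3′UTR of 218 bases. The site nearer the stop codon had 192 IP reads against 45 in replicate 1 (log2 fold 2.86, interval 2.38 to 3.36), and in replicate 2 it was listed at a log2 fold of 4.67 with a −log10(P value) of 400, the limit of the table, from which reads could not be recovered. That value is of a cluster of 12 bases, and the other clusters of replicate 2 over the same cluster of replicate 1 stood at 3.99 (47 bases, at the limit too) and 2.40 (21 bases, 47 against 32 reads, interval 1.72 to 3.10). The other site had 104 against 25 reads (2.82, 2.18 to 3.51) and 87 against 44 (2.83, 2.29 to 3.39). Cct8l1, a retrogene of a chaperonin subunit, was significant in both replicates with 23 and 11 recovered IP reads in its clusters.

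The sperm kinase list, which also names the phosphatase Dusp21 and other genes, had 1 shared site. The list of actin-like proteins had 0 and that of enzymes of sperm metabolism 1. Of the 280 intronless genes with clusters in both replicates, 49 had a shared site. The site of the metabolic list was in Gykl1, at 2.22 (11 IP reads against 4, interval 0.47 to 4.33) and 2.20 (14 against 11, 0.95 to 3.48). The adjusted p of its Fisher's exact test was 0.089 in replicate 1. Of 3 genes of the sperm kinase list, all of them kinases, Tssk1 was significant in both replicates, and Tssk2 and Tssk6 were significant in 1 replicate. The Tssk1 site stood at 2.01 (19 IP reads against 8, interval 0.75 to 3.41) and 2.43 (15 against 10, 1.18 to 3.75). Dusp21 had a cluster in replicate 2 alone, which was significant. Of 4 listed actin-like genes, Actl7a and Actrt2 were significant in both replicates without a shared site, Actl9 was significant in replicate 1 alone, and Actl11 with its 5 sites, described above, is not in that list. Of 6 listed metabolic retrogenes, Pgk2 and Gykl1 were significant in both replicates, Gk2 and Ldhal6b in replicate 1 alone and Prps1l1 in replicate 2 alone, and Pdha2, which encodes the germ cell subunit of pyruvate dehydrogenase, reached at most 1.67 and 1.85.

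Histones stood at the low end by their median. The median log2(fold change) of clusters in histone and chromatin genes was 0.76 in replicate 1 and 0.92 in replicate 2, below the medians of all clusters and near the 0.76 and 0.92 of coding clusters in genes with introns. Of 36 such genes, 4 were significant in both replicates, namely H2afx, Hils1, Hist2h2be and Hist2h2aa2. Hist3h2ba, Hist1h4f and H1f0 were significant in replicate 1 alone, and Hist1h4j, Hist1h4m and Hist1h4n in replicate 2 alone. H2afx, which encodes the H2A variant phosphorylated at DNA breaks and on the sex body, had 98 IP reads against 35 at its site in replicate 1 (log2 fold 2.25, interval 1.68 to 2.85) and 94 against 67 in replicate 2 (2.34, 1.87 to 2.81). Hils1, a linker histone of spermatids, stood at 3.04 and 2.40. Against the low median, the site of Hist2h2be, in its 3′UTR, stood at 4.15 (21 IP reads against 2, interval 2.12 to 7.29) and 3.33 (14 against 5, 1.78 to 5.16). The window of Hist2h2aa2 had 4 near-identical stretches elsewhere, the best at 100% of bases and at a further histone gene, so its value is uncertain. The site had 10 IP reads against 2 (log2 fold 3.08, interval 0.85 to 6.31) and 6 against 2 (3.43, 0.95 to 6.77).

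Of 9 listed transcription factor genes, 0 were significant in both replicates, and Ier5, Jun, Jund, Sox4 and Pou5f2 were significant in 1. Hsfy2, a relative of heat shock factors that is outside the list and was named after its values were seen, was significant in both replicates, with 1 significant cluster in each, at 3.46 (13 IP reads against 2, interval 1.32 to 6.65) and at 4.66 (7 against a single SMInput read, 1.69 to 10.1), and these clusters do not overlap. Others outside the list had clusters and none that was significant, among them Crebzf and Olig1, and Thap11 was significant in replicate 2 alone. The receptor list holds olfactory, vomeronasal, taste and other genes chosen by symbol, and 4 of its 260 genes had a cluster in either replicate. In that list Olfr645 was significant in replicate 2, with 10 recovered IP reads, and outside it the receptor gene Fzd7, named after its values were seen, was significant in replicate 2 at 2.02. Further receptor genes outside it had clusters and none that was significant, among them Fzd2, Fzd8, Adra2c, Adrb1 and Ffar1.

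Retrogenes and their parents were set side by side, and the listed retrogenes Cetn1, Ppp3r2, Naa11 and Timm8a2 were left aside because they have an annotated intron. Pgk2, the phosphoglycerate kinase of spermatids, had 4 of 8 and 1 of 7 clusters significant, and its parent Pgk1 had 0 of 2 in replicate 1 and no cluster in replicate 2. Cstf2t had 6 of 8 and 3 of 4 significant clusters, and Cstf2 1 of 16 and 5 of 17. Rpl10l had 1 of 3 in both replicates, and Rpl10 0 of 6 and 0 of 2. Pabpc1, the parent of Pabpc2 and Pabpc6, had 64 and 68 clusters of which 12 and 8 were significant, with 9976 and 7962 IP reads, where Pabpc6 had 6 of 12 and 4 of 11 and Pabpc2 had 2 of 11 and 3 of 11. Pcbp1 had 2 of 6 and 3 of 3, and Pcbp2 10 of 45 and 7 of 35. Cct8l1 had 2 of 2 and 1 of 2, and Cct8 1 of 23 and 0 of 22. Rbmxl2 had 0 of 3 and 0 of 4, and its parent Rbmx no cluster in replicate 1 and 1 of 1 in replicate 2. Prps1l1 had 0 of 4 and 3 of 5, and Prps1 1 of 11 and 2 of 3. Gk2 had 1 of 7 and 0 of 5, and Gk no cluster in replicate 1 and 0 of 2 in replicate 2. In Pdha2 and Pdha1 no cluster was significant, and Mcts2 and Nkapl had 2 and 4 clusters in each replicate with none significant, where their parents Mcts1 and Nkap had no cluster. Atxn7l3b, paired with Atxn7l3 after the values were seen, had 12 of 18 and 8 of 16, and Atxn7l3 1 of 7 and 2 of 6. The differences between retrogenes and parents were not tested.

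Some intronless genes had clusters with many IP reads and none that was significant. The 5 genes with the most IP reads in a cluster that were significant in neither replicate were Hist1h2ba, Spz1, Znrf4, AF366264 and Hist1h1t, and the values are those of the cluster with the most IP reads in each replicate. Hist1h2ba, which encodes a testis-specific H2B, had 134 IP reads against 157 SMInput reads in replicate 1 (log2 fold 0.53, interval 0.19 to 0.88) and 70 against 204 in replicate 2 (0.30, −0.11 to 0.70). Spz1, a transcription factor of spermatogenesis, stood at 83 against 76 (0.89, 0.42 to 1.36) and 102 against 158 (1.22, 0.84 to 1.58), and Hist1h1t, the testis linker histone H1t, at 73 against 66 (0.91, 0.41 to 1.41) and 52 against 103 (0.86, 0.35 to 1.36). Znrf4, an E3 ubiquitin ligase, stood at 77 against 98 (0.41, −0.04 to 0.86) and 79 against 143 (0.99, 0.58 to 1.40), and AF366264 at 44 against 61 (0.29, −0.30 to 0.87) and 77 against 153 (0.86, 0.44 to 1.26). In Spz1 and Znrf4 the clusters of the replicates do not overlap. A low fold follows from how these genes were chosen, and the values are a description.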

How the data were processed

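The authors trimmed reads with cutadapt, removed rRNA reads with Bowtie2, aligned the rest to mm10 with STAR, collapsed duplicates by molecular identifier and called clusters with Clipper in each replicate. In the tables they deposited, the −log10 values give the P value of IP against SMInput reads. The log2 values that the authors deposited are the fold change of IP over SMInput, scaled by library totals.

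Library totals and reads per cluster are not listed and were inferred from these values. Totals are whole numbers whose ratio gives the listed scaling, and reads are the pair that gives both listed values. Which test gave the listed P (Fisher's exact test where an observed or expected number was below 5, otherwise Yates' chi-square) was worked out from the values themselves, since an earlier rule on observed numbers alone left rows unmatched. With it 0 rows between the limits were unmatched, and 99.97% and 99.93% had a single solution. The recovery was tested on simulated data made with the same formulas, which does not test the formulas. Clusters listed at 0 or at the limit of 400 gave no reads (60 and 27 intronless clusters in replicates 1 and 2), and their listed P stood in for the Fisher's exact test before adjustment.

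Genes came from GENCODE M21 basic. Windows were read from GRCm38 and aligned to it with blastn 2.17.0, and at least 90% identity over at least 80 bases counted as near-identical. Other steps used Python 3.11.15, numpy 2.4.6, pandas 2.3.3, scipy 1.17.1, statsmodels 0.14.6 and pysam 0.24.0. Named genes are the 10 with the most sites, the 5 sites with the largest smaller fold (1 per gene), the 5 genes with the most IP reads in a cluster and no significant cluster, members of role lists with a significant cluster, and retrogene pairs. Genes said to be outside a list, the pairs of Papolb and Papola and of Atxn7l3b and Atxn7l3, the cluster pair that gives the value of a site and the sequences shown were chosen after values were seen. The members and lists were chosen with earlier results of these data known.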

Additional observations from a re-analysis of the deposited data

How the results depend on the processing

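No test over samples was made, and depth limits single clusters, whose median is 10 to 11 IP reads. No paired analysis was possible for single clusters, because 0 intronless clusters have the same bounds in both replicates and the tables give no reads of a replicate at the clusters of the other. Reads summed by gene or site were not fitted with the replicate as a block, which is a fit left out and not one that cannot be made. With both thresholds at 3, significant intronless clusters fell from 273 to 87 in replicate 1 and from 320 to 89 in replicate 2, sites in both replicates from 89 to 27, and genes in both from 86 to 25, by construction of a stricter threshold. Requiring the clusters of the replicates to overlap left 49 genes. With a replicate left out, no overlap is asked for, and the counts ranged from 273 to 320 significant clusters in place of sites and from 116 to 146 genes. There were 80 sites with an overlap of 50% of both clusters and 77 without near-identical stretches, an alternative chosen after seeing the data. Motif shares rose with the window, which holds more bases. At 200 bases GAACA was in 15.7%, AAACC in 16.9%, GGACT in 18% and ACACA in 15.7% of windows, and at 50 bases AAACC was in 1.12% and GGACT in 3.37%, beside 4.49% and 7.87% at 100 bases. A minimum of 10 IP reads left 240 significant clusters in replicate 1 and 215 in replicate 2, or 213 without the 2 listed at the limit, whose reads are not known, which is a change of 1.5 times. The Fisher's exact test, all GENCODE transcripts and leaving out multigene families moved the counts of significant clusters by less than 1.5 times. Leaving out the mitochondrial genome, which has no clusters here, changed neither these counts nor the medians, and the order of regions changed no region count.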
